A study of Mus musculus with 4 samples.

Results

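The miR-130 and miR-301 family is a set of miRNAs cut from the hairpins of miR-130a, miR-130b, miR-301a and miR-301b. Its members here were the rows of the deposited miRNA table with the names mmu-miR-130a-3p, mmu-miR-130b-3p, mmu-miR-130b-5p, mmu-miR-301a-3p, mmu-miR-301a-5p and mmu-miR-301b-3p (the species prefix mmu is dropped in most sentences), which are 6 of the 1900 mature miRNA names in the table. The rule uses names only and no measured value.

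The 4 libraries were small RNA from an immunoprecipitation of Argonaute2 (AGO2), the protein that carries mature miRNAs to their target RNAs. All came from freshly dissected olfactory bulb of C57BL/6 mice, taken 8 weeks after injection. The GFP-AGO2 group (n = 2) had received the viral vector LV.PGK.GFP-AGO2, and the Control group (n = 2) had been sham-injected and is labelled with no vector. The submitters describe the study as one of newborn neurons, but the labelled tissue is the whole bulb, so any cell of the bulb may have given RNA. Sources used here give neither the antibody nor the ages of the mice. Without the antibody, the Control libraries may hold RNA on the mouse's own AGO2 or background of the pull-down, and every fold change, share and arm ratio below is relative to whichever it was. Which of these they hold was not tested. Nothing in the labels ties each library to a mouse of its own. The p-values therefore measure only how far these libraries spread, which may be technical.

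A miRNA hairpin gives 2 arms, called 5p and 3p, and usually only one of them, the guide, is kept in quantity by an Argonaute protein while the partner is lost. The guide finds target RNAs mainly through its seed, the short stretch near its 5′ end. In this family the 3p arms are generally described as guides, and they share a seed, so they are thought to act on overlapping targets, among them regulators of growth factor signalling. MiR-130a is best known from blood vessels and blood-forming cells.

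The 3p arms that have an entry in RefSeq (build GRCm38.p6) are printed to show the shared seed, which is bases 2 to 8 and stands in capitals. MiR-301b-3p has no entry in that table.
miR-130a-3p: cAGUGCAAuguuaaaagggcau
miR-130b-3p: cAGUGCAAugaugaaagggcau
miR-301a-3p: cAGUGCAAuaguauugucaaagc
MiR-130a-3p and miR-130b-3p were identical at 20 of 22 positions, and both shared their first 9 bases with miR-301a-3p. The 5p arms do not carry this seed, as the same bases in capitals show.
miR-130b-5p: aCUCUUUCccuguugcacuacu
miR-301a-5p: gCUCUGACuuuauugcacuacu
These 5p arms end in the same 10 bases, UUGCACUACU. This end holds UUGCACU, the reverse complement of the family seed, from base 13 of each arm, since the arms face each other in the stem of the hairpin. The hairpins of miR-130b and miR-301a are printed whole because both arms of each were measured, and the arms stand in capitals, 5p first.
Mir130b hairpin: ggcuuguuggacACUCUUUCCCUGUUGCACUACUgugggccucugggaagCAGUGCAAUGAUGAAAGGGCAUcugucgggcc
Mir301 hairpin: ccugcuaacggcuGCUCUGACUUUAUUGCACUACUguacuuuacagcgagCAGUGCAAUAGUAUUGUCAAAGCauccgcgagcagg

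The members lie at 3 places in the genome (mm10). MiR-130b and miR-301b are neighbours on the minus strand of chromosome 16, with miR-130b-3p at 17124071 to 17124092, miR-130b-5p at 17124109 to 17124130 and miR-301b-3p at 17124420 to 17124442. Only 289 bases separate miR-130b-5p from miR-301b-3p. GENCODE M21 places all 3 in an intron of the protein-coding gene 2610318N02Rik, on the same strand. MiR-301a-5p (chromosome 11, 87113017 to 87113038) and miR-301a-3p (87113054 to 87113076) lie on the plus strand in an intron of Ska2, a gene for a protein of the mitotic spindle and kinetochore. MiR-130a-3p (chromosome 2, 84741116 to 84741137, minus strand) lies in no annotated gene other than its own. No member overlapped another name of the table, and each had a single position. The deposited counts were made with no strand option, so reads of either strand would have been counted.

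Each library held 673916 to 2809758 miRNA counts, with the GFP-AGO2 libraries the deeper. The family was a small part of them, and most of its counts came from a 5p arm, miR-130b-5p. Its 6 members together had 241 (Control replicate 1), 144 (Control replicate 3), 1186 (GFP-AGO2 replicate 1) and 627 (GFP-AGO2 replicate 3) counts, or 0.0239%, 0.0214%, 0.0422% and 0.0337% of the counts. Levels below are CPM, the library-size scaled count that edgeR gives with its TMM factors, and log2 fold changes set GFP-AGO2 against Control, so that a positive value is higher in GFP-AGO2. A difference was called at an adjusted p under 0.05 in edgeR's quasi-likelihood test, with Benjamini-Hochberg adjustment over the 457 names that passed the filter on low counts. In this comparison 34.4% of the tested names were called, 17.3% higher and 17.1% lower. Of the 6 members 5 were tested and 0 were called, by edgeR and by DESeq2, while 2 had an unadjusted edgeR p under 0.05, a level that 46% of all tested names reached. MiR-301b-3p did not pass the filter.

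**Figure D1:**
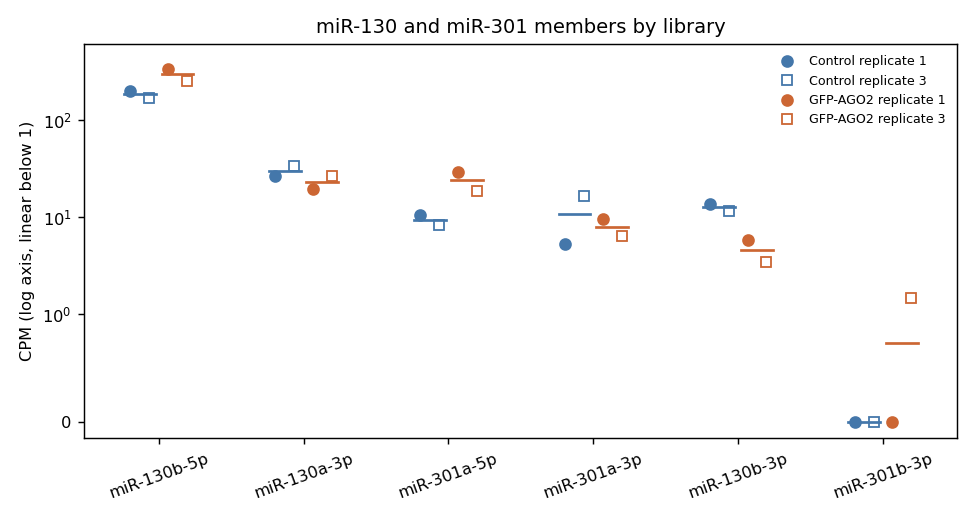
CPM of each family member (log axis, linear below 1) in the 4 libraries, with blue for Control, orange for GFP-AGO2, filled circles for replicate 1, open squares for replicate 3 and a line for the mean of each group. MiR-130b-5p stands above the other members in every library, and only for miR-130b-5p, miR-301a-5p and miR-130b-3p do the groups not overlap.

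Among the seed-bearing 3p arms, miR-130a-3p was the most abundant in every library. Counts of mmu-miR-130a-3p were 25 (Control replicate 1), 20 (Control replicate 3), 58 (GFP-AGO2 replicate 1) and 54 (GFP-AGO2 replicate 3), which are 26.0, 33.0, 19.5 and 26.5 CPM. The groups overlapped, since GFP-AGO2 replicate 3 lay just above Control replicate 1. Control averaged 29.5 ± 4.97 CPM and GFP-AGO2 23.0 ± 4.93 (SD, n = 2 each), a log2 fold change of -0.35 (SE 0.39, edgeR adjusted p = 0.529). Leaving out Control replicate 3 gave -0.22, leaving out replicate 1 of GFP-AGO2 gave -0.14 and leaving out its replicate 3 gave -0.58, and no call was made in any of these fits.

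The arm closest to it in sequence, mmu-miR-130b-3p, had 13, 7, 17 and 7 counts in the same order of libraries, or 13.5, 11.5, 5.72 and 3.43 CPM. Both GFP-AGO2 libraries lay below both Control libraries, as they did for 35.2% of all tested names. Control averaged 12.5 ± 1.38 CPM and GFP-AGO2 4.57 ± 1.62 (SD, n = 2 each). The log2 fold change of -1.43 (SE 0.62) did not pass the test (edgeR adjusted p = 0.134), and it rests on counts of 17 or fewer.

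Of mmu-miR-301a-3p there were 5, 10, 28 and 13 counts, or 5.19, 16.5, 9.41 and 6.37 CPM. The lowest and the highest of these were both Control libraries, so the groups overlapped entirely. Its log2 fold change was -0.37 (SE 0.74, edgeR adjusted p = 0.735), and 0.58 without Control replicate 3 (adjusted p = 0.675), so no direction can be read for it.

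From the hairpin next to miR-130b, mmu-miR-301b-3p had no count in Control replicates 1 and 3 and GFP-AGO2 replicate 1, and 3 counts in GFP-AGO2 replicate 3. A count of 0 allows up to 3 counts, which correspond to 3.12, 4.95 and 1.01 CPM in those 3 libraries. The neighbour miR-130b-5p had 102 to 996 counts in the same libraries. The partner arms miR-130a-5p and miR-301b-5p, which are no members, had 0 counts in all libraries and 1 count in GFP-AGO2 replicate 3, respectively. Another 4 names of the table have the family seed by their RefSeq sequence. MiR-130c had 3 counts and miR-721 had 2, all in Control replicate 3, and miR-6341 and miR-6389 had 0 in all libraries.

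Summed, the 4 seed-bearing 3p arms had 43 and 37 counts in the Control and 103 and 77 in the GFP-AGO2 libraries, replicate 1 before replicate 3 in both. Their share of the miRNA counts was 0.00427% (95% exact interval 0.00309 to 0.00575) and 0.00549% (0.00387 to 0.00757) in Control and 0.00367% (0.00299 to 0.00445) and 0.00414% (0.00327 to 0.00518) in GFP-AGO2. These intervals cover counting error only. Both GFP-AGO2 shares were lower than both Control shares, but the intervals overlapped. The group means were 0.00488% ± 0.000862 and 0.0039% ± 0.000338 (SD, n = 2 each; exact two-sided permutation p = 0.333, the smallest that 2 libraries against 2 can give).

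Within the 3p group miR-130a-3p made up 58.1% and 54.1% of the counts in Control and 56.3% and 70.1% in GFP-AGO2. MiR-130b-3p made up 30.2% and 18.9% in Control and 16.5% and 9.09% in GFP-AGO2. The ratio of miR-130a-3p to miR-130b-3p, which does not depend on scaling, was 0.92 and 1.45 on the log2 scale in Control and 1.74 and 2.86 in GFP-AGO2. That difference of 1.12 had an exact permutation p = 0.333, or 1 when adjusted over the 6 pairs of 3p arms compared. Leaving out replicate 1 of GFP-AGO2 gave 1.68, and leaving out its replicate 3 gave 0.557. MiR-130b-3p against miR-301a-3p differed by -1.18 (exact permutation p = 0.333) and miR-130a-3p against miR-301a-3p by -0.06 (exact permutation p = 1). Both also had an adjusted p of 1 over the 6 pairs. Ratios to miR-301b-3p rest on 0 to 3 counts and are not given.

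The 5p arms, which lack the family seed, were higher in both GFP-AGO2 libraries than in both Control libraries, though neither passed the test. The most abundant member in every library was mmu-miR-130b-5p, whose counts were 188 and 102 in Control (replicates 1 and 3) against 996 and 512 in GFP-AGO2. It made up 78.0%, 70.8%, 84.0% and 81.7% of the family's counts in those libraries. Among all names of the table it ranked 158th and 171st in Control and 132nd and 146th in GFP-AGO2.

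The levels of miR-130b-5p were 195 and 168 CPM in Control and 335 and 251 in GFP-AGO2. Both GFP-AGO2 libraries lay above both Control libraries, as they did for 36.8% of all tested names. The means were 182 ± 19.1 and 293 ± 59.3 CPM (SD, n = 2 each), a ratio of 1.61 and a log2 fold change of 0.69 (SE 0.21) with an edgeR adjusted p = 0.0596. The call depended on the processing. It was made with the replicate number as a block (0.68, edgeR adjusted p = 0.0356), with total counts in place of TMM (0.89, adjusted p = 0.0268), with no filter (0.93, adjusted p = 0.00163) and without GFP-AGO2 replicate 3 (0.88, adjusted p = 0.0118), and not without any other library (adjusted p = 0.116 to 0.28).

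The second 5p arm, mmu-miR-301a-5p, had 10, 5, 87 and 38 counts in the same order, or 10.4, 8.25, 29.2 and 18.6 CPM. Here too the GFP-AGO2 libraries were both above the Control libraries. The means were 9.32 ± 1.51 and 23.9 ± 7.51 CPM (SD, n = 2 each), a ratio of 2.57. The log2 fold change of 1.34 (SE 0.49) did not pass the test (edgeR adjusted p = 0.0892), nor under any other setting that gave it a value.

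Ordered by mean level, miR-130b-5p came first in both groups, apart from the rest by far more than the SD. In Control it was followed by miR-130a-3p and then by miR-130b-3p, miR-301a-3p and miR-301a-5p, at 12.5 ± 1.38, 10.8 ± 7.99 and 9.32 ± 1.51 CPM. Both Control libraries had more miR-130b-3p than miR-301a-5p, on 13 and 7 against 10 and 5 counts. MiR-301a-3p was not apart from either beyond its spread. In GFP-AGO2 the next members were miR-301a-5p and miR-130a-3p, at 23.9 and 23.0 CPM, likewise not apart. MiR-301a-3p (7.89 ± 2.15 CPM) and miR-130b-3p (4.57 ± 1.62) came after them. The members are 22 or 23 bases long. What part length or base sequence has in this order was not tested.

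Both arms of a hairpin are counted in the same library, so their ratio is free of the scaling. In the miR-130b hairpin the 5p arm outnumbered the seed-bearing 3p arm in all 4 libraries. The 3p arm was 6.47% of 201 counts (95% exact interval 3.49 to 10.8) in Control replicate 1 and 6.42% of 109 counts (2.62 to 12.8) in Control replicate 3. It was 1.68% of 1013 counts (0.981 to 2.67) in GFP-AGO2 replicate 1 and 1.35% of 519 counts (0.544 to 2.76) in GFP-AGO2 replicate 3. The replicates of each group were close together, and the GFP-AGO2 shares were below both Control shares. The interval of Control replicate 3 still overlapped both GFP-AGO2 intervals. The 3p arm had 17 counts or fewer in each library.

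**Figure D2:**
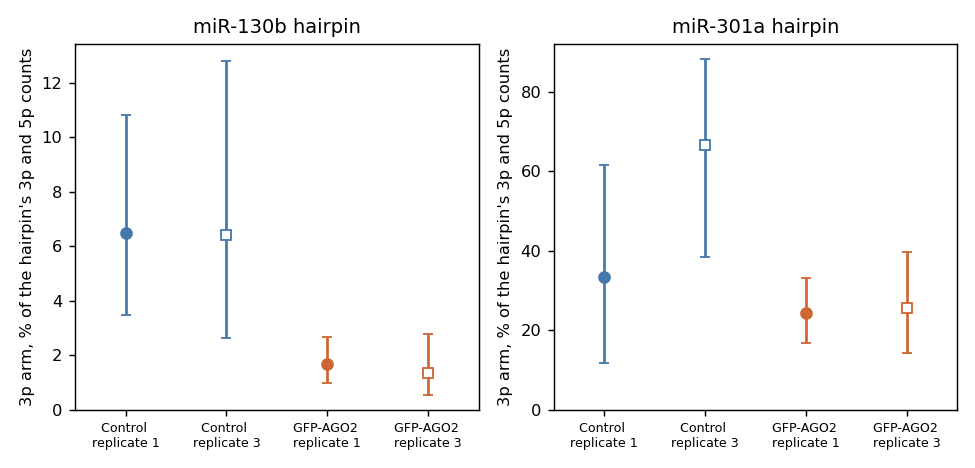
Share of the 3p arm in the 3p and 5p counts of the miR-130b hairpin (left) and the miR-301a hairpin (right) in each library, with 95% exact binomial intervals that cover counting error only; the vertical axes differ. The miR-130b share is 6.42% to 6.47% in Control and 1.35% to 1.68% in GFP-AGO2, while the Control libraries of miR-301a lie far apart at 33.3% and 66.7%.

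On the log2 scale the 3p to 5p ratio of miR-130b, with a prior of 0.5 counts, was -3.80 and -3.77 in Control and -5.83 and -6.09 in GFP-AGO2. The difference of -2.17 had the smallest exact permutation p that the design allows, p = 0.333. A test of arm ratios across all 109 hairpins with both arms tested, edgeR's diffSpliceDGE, was chosen after the data had been seen and gave miR-130b an adjusted p = 0.0269. That test called 25.7% of the hairpins, and 8.26% with a lower 3p to 5p ratio in GFP-AGO2. Without any single library the difference for miR-130b was -2.04 to -2.31, but it was no longer called (diffSpliceDGE adjusted p = 0.0831 to 0.109).

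In the miR-301a hairpin the arms were closer to balance and the counts few. The 3p arm was 33.3% of 15 counts (11.8 to 61.6) in Control replicate 1 and 66.7% of 15 counts (38.4 to 88.2) in Control replicate 3. It was 24.3% of 115 counts (16.8 to 33.2) and 25.5% of 51 counts (14.3 to 39.6) in the GFP-AGO2 libraries. The GFP-AGO2 shares were the lower, but the interval of Control replicate 1 covered both. The log2 ratio differed by -1.57 (exact permutation p = 0.333; diffSpliceDGE adjusted p = 0.185), by -0.63 without Control replicate 3 and by -2.50 without Control replicate 1.

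Set beside the other hairpins, a 3p to 5p ratio below that of miR-130b in Control was found in 22 of the 109, and 46 had more 5p than 3p counts in all 4 libraries. The median difference of the ratio between groups was 0.04 over all 109, with 52 below 0. From the lowest, miR-130b ranked 7th and miR-301a 13th. Both GFP-AGO2 libraries lay below both Control libraries in 27.5% of the hairpins, those of miR-130b and miR-301a among them.

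**Figure D3:**
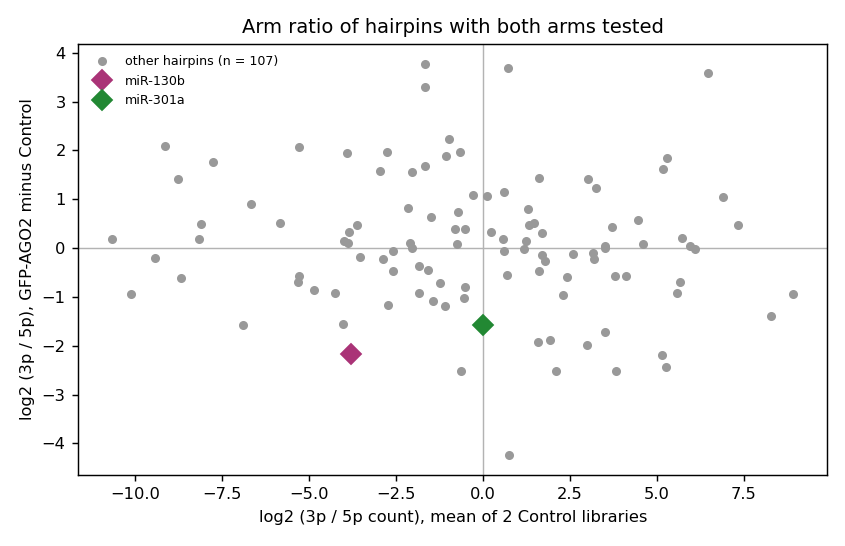
Difference of the log2 3p to 5p count ratio, GFP-AGO2 minus Control (vertical), against the mean ratio in the 2 Control libraries (horizontal) for 109 hairpins, each point a hairpin. The miR-130b and miR-301a hairpins lie below 0, at -2.17 and -1.57, within a wide scatter around the median of 0.04.

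Other miRNAs carry 6 of the 7 seed bases at an offset of 1 base. The miR-19 arms, of the growth-promoting miR-17 to miR-92 cluster, hold GUGCAA from base 2. The miR-148 and miR-152 arms hold AGUGCA from base 3. The shared run stands in capitals.
miR-19b-3p: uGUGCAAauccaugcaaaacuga
miR-148a-3p: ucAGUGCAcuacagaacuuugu
miR-152-3p: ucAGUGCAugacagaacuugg
Of the 5 names of this list (miR-19a-3p, miR-19b-3p, miR-148a-3p, miR-148b-3p and miR-152-3p), all tested, 1 was called lower and 0 higher, where 17.1% of all tested names were called lower and 17.3% higher. In a list of 5 such counts are near that background. The median log2 fold change was -0.34 against -0.01 over all names tested. The median of the 3 tested family 3p arms was -0.37 and that of the 2 5p arms 1.01.

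The called name was miR-152-3p, with 312 and 303 CPM in Control and 145 and 193 in GFP-AGO2. It fell by 0.87 on the log2 scale (SE 0.20, edgeR adjusted p = 0.0256), but was not called without Control replicate 1, Control replicate 3 or GFP-AGO2 replicate 1 (adjusted p = 0.0561 to 0.0876), nor with total counts (adjusted p = 0.0723) or no filter (adjusted p = 0.0613). MiR-148a-3p had 1802 and 1303 CPM in Control and 316 and 883 in GFP-AGO2. Its groups did not overlap, but its GFP-AGO2 libraries lay far apart, and its log2 fold change was -1.38 (SE 0.50, edgeR adjusted p = 0.0887); it was called by DESeq2 (-1.39, adjusted p = 0.00282) and with the replicate block (-1.54, adjusted p = 0.0136). It was also called with no filter (-1.15) and when either GFP-AGO2 library was left out (-0.82 without replicate 1 and -2.30 without replicate 3), where the gap between those libraries no longer enters the spread. MiR-148b-3p had -0.34 (SE 0.16), miR-19b-3p, which has several positions, 0.45 (SE 0.28) and miR-19a-3p 0.02 (SE 0.47), none of them called (edgeR adjusted p = 0.165 to 0.981). In every library miR-148a-3p, miR-148b-3p, miR-152-3p and miR-19b-3p were above each of the family's 3p arms.

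**Figure D4:**
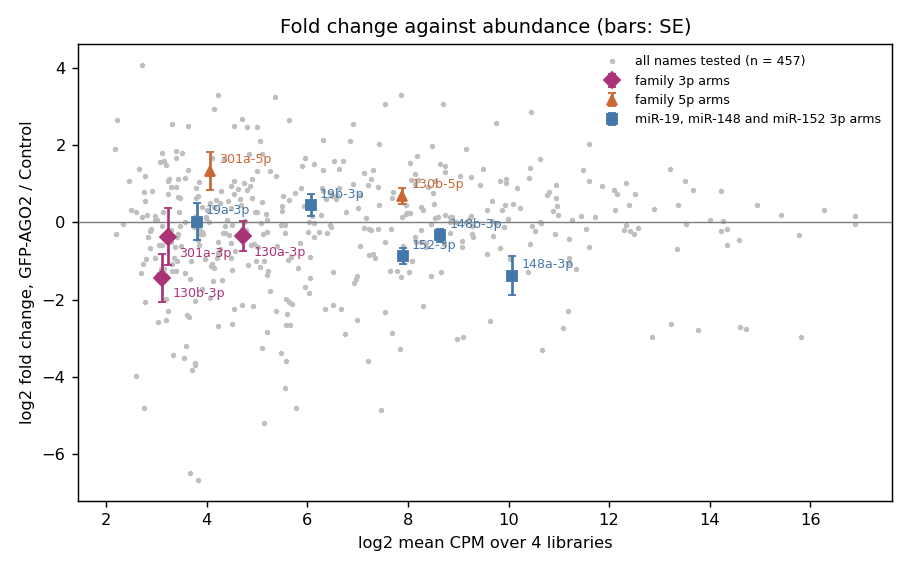
Log2 fold change, GFP-AGO2 over Control, against log2 mean CPM for the 457 tested names (grey), the family's 3p arms (diamonds), its 5p arms (triangles) and the miR-19, miR-148 and miR-152 3p arms (squares), with bars of 1 SE. The 5p arms lie above 0 (0.69 and 1.34) and the 3p arms below (-0.35, -0.37 and -1.43), and no family member passed the test.

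The names whose pattern over the 4 libraries was most like that of miR-130b-5p were miR-17-5p, miR-195a-3p and miR-493-5p. Likeness was the root mean square difference of log2 CPM, each name centred on its own mean, and was 0.071, 0.109 and 0.126. MiR-17-5p had 63.3 and 51.1 CPM in Control and 118 and 82.8 in GFP-AGO2, and a log2 fold change of 0.80 (SE 0.29, edgeR adjusted p = 0.0887). MiR-195a-3p and miR-493-5p had 0.68 and 0.67 (edgeR adjusted p = 0.0887 and 0.214). In all 3, as in miR-130b-5p, GFP-AGO2 replicate 1 was the highest library. The 3 were chosen by likeness over these same libraries, so their shared highest library and similar fold changes are no separate result.

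Some marker names of cell types were called different between the groups, and others were not. Of the epithelial list (miR-200 family and miR-183 cluster) all 8 of 8 names fell, from 23.0% to 23.4% of the counts in Control to 2.56% to 5% in GFP-AGO2. Vessel and mural names took 0.310% to 0.432% of Control counts and 0.0289% to 0.148% of GFP-AGO2 counts. Most of these counts were of miR-143-3p, which was not called (edgeR adjusted p = 0.0637) and had 266 and 1324 CPM in GFP-AGO2. With 1 of 2 tested called lower, the called name was miR-145a-3p, on 19 to 73 counts per library. MiR-126a-3p and miR-126a-5p were at 0 in every library. The only tested red cell name, miR-451a, fell, and 2 of 3 tested immune names fell. Of those lists 3 of 4 and 4 of 6 names were in the table. Over all tested names 17.1% were called lower, and the vessel, red cell and immune lists are too short to set against that share. Of 8 neuronal names 2 rose, miR-9-5p and miR-9-3p, which are the 2 arms of miR-9. Only 1 was called lower, miR-138-5p (log2 fold change -0.82, edgeR adjusted p = 0.0101). These calls were near the 34.4% called over all names. The list held 1.57% to 1.78% of the counts of Control libraries and 1.99% to 2.20% of those of GFP-AGO2. These shares depend on the epithelial part of the total, and the median log2 fold change of the list, with TMM factors, was 0.01. The 3 oligodendrocyte names were at 0 in every library. All 5 marker names at 0 overlap another name of the table, and reads that overlap 2 names are not counted under the command in the file header, so these zeros were not read as absence. In bulk tissue, fewer cells of a type and less RNA per cell cannot be told apart. Neither can be told apart from a difference in what was pulled down, since what the Control libraries hold is not known. The part of these lists in the family's values was not tested.

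Every setting that gave a value kept the direction of miR-130a-3p, miR-130b-3p, miR-130b-5p and miR-301a-5p. With total counts only, which moved the median of all names from -0.01 to 0.20, miR-130a-3p had -0.13, miR-130b-3p -1.22, miR-301a-3p -0.15 and miR-301a-5p 1.55 on the log2 scale. With the epithelial names left out of the totals, the median was -0.13 and miR-130b-5p had 0.56 (edgeR adjusted p = 0.109).

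**Figure D5:**
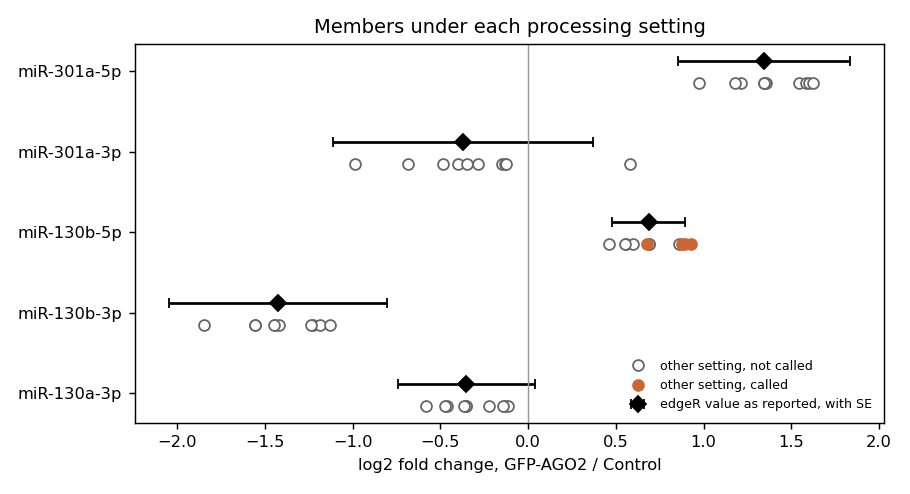
Log2 fold change of the 5 tested members as reported (diamonds, bars of 1 SE) and under each other setting (circles, filled where the adjusted p was under 0.05). Only miR-130b-5p was called under some settings, and only miR-301a-3p crossed 0, at 0.58 without Control replicate 3.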

How the data were processed

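Small RNA of 4 libraries was analysed, 2 per group. Per the file headers, the authors counted reads with featureCounts v1.4.6-p1 (primary alignments, mature miRNAs of a miRBase annotation). Per the submitters' processing notes, cutadapt, STAR and the build mm10 were used, with no version of either tool given in the sources used here. The deposited values are raw counts per miRNA name. Columns were matched to samples by title. Replicates of a group were not copies of each other (chi-square 4564 on 383 degrees of freedom in Control and 47710 on 475 in GFP-AGO2).

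Counts were tested with edgeR 4.0.16 (R 4.3.3) by glmQLFTest, with TMM factors and filterByExpr at a minimum count of 10, which kept 457 names and at least 99.88% of each library; the SE is the log2 fold change over the root of the F statistic. The script was tested on simulated data. DESeq2 1.42.0, other scalings and filters, the replicate block and leaving out each library were alternatives; diffSpliceDGE was added after the data were seen. Leaving out a library kept the same 457 names. Exact intervals are Clopper-Pearson intervals. Sequences are from RefSeq, where 5 of 6 members matched.

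The members and lists were chosen with earlier results of these data known. The names reported are the members, their partner arms, names with the same seed, a list with an offset seed, and the 3 names nearest in pattern to the most abundant member.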

Additional observations from a re-analysis of the deposited data

How the results depend on the processing

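Over the 4 libraries, miR-130a-3p, miR-130b-3p, miR-130b-5p and miR-301a-5p kept their direction under every setting that gave them a value; the filter at 50 counts left only miR-130b-5p in the test. MiR-130b-5p was called with total counts only (0.894), with no filter (0.928) and with the replicate block (0.680), each the 1 member called there, and had 0.462 to 0.878 when a library was left out, where 0 to 1 members were called. The labels do not say what the replicate numbers stand for, so the numbers were not taken to pair libraries. Same-numbered libraries did not deviate together (r = -0.06 across names). That value cannot show that they were unpaired, since each group gives a single difference per name. When a library was left out, the names called higher were 47 (without Control replicate 1) to 94, with 49 without Control replicate 3, and those called lower 43 (without Control replicate 1) to 106, against 79 and 78. MiR-301a-3p then had -0.984 to 0.579, the latter without Control replicate 3, and miR-19a-3p -0.187 to 0.248. The GFP-AGO2 minus Control difference in the log2 ratio of miR-130a-3p to miR-301a-3p was then -0.6876 to 0.5602. With all libraries and a prior count of 5 that difference was 0.1618. The same difference for the log2 ratio of miR-130b-3p to miR-301a-3p was -0.2904 without Control replicate 1 and -2.071 when Control replicate 3 was left out. The difference in 3p share was -0.0003661 points without Control replicate 3, against -0.0009759. Without the epithelial names in the totals miR-19a-3p had -0.097, and the difference in 3p share was -0.002325 points. With all 6 members in place of the 3p arms, the share differed by 0.01532 percentage points in the other direction. The 5p arms, which hold most of these counts, took 0.0197% and 0.0159% in Control and 0.0385% and 0.0296% in GFP-AGO2. The difference between groups in the log2 arm ratio of miR-130b, at -2.175, was called by diffSpliceDGE, also with the replicate block (adjusted p = 0.0378). The causes of these changes between settings were not tested. A fit without 1 library assumes that the lone library varies like the other group.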

Other observations

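The hairpin of miR-148b, one of the offset-seed relatives, was singled out after its values were seen. Its 3p arm was by far the more abundant, yet its log2 3p to 5p ratio was 4.79 and 5.53 in Control replicates, against 2.96 and 3.00 in those of GFP-AGO2. The difference of -2.18 was of the same size as that of miR-130b (exact permutation p = 0.333; diffSpliceDGE adjusted p = 0.0116), in a hairpin where the 3p and not the 5p arm holds most counts. That test called 25.7% of all hairpins tested, and 8.26% with a lower 3p to 5p ratio in GFP-AGO2. Larger called falls were found in other hairpins, such as miR-676 (-2.44) and miR-431 (-2.52), so the size is not particular to seed relatives.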
